A study of Mus musculus with 12 samples.

Results

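Haemogenic endothelium that had received no doxycycline was followed over its last 12 h of culture, by setting the untreated 24 h cultures against the untreated 12 h cultures. The members are 4 of the 12 RNA-seq libraries of the series, namely both libraries labelled as untreated at 24 h and both labelled as untreated at 12 h, and all genes were compared in the direction 24 h over 12 h. The mouse embryonic stem cells were an iSox7 line derived from Ainv18, in which doxycycline (Dox) induces Sox7. The untreated cells carry this inducible construct too, without the inducer. Day 3.5 embryoid bodies gave the sorted FLK1+ cells, which spent 48 h in liquid blast culture with serum, VEGF, IL6 and D4T conditioned medium. Cultures were then harvested after a further 6, 12 or 24 h, either with Dox at 1 µg/ml or without it, and each of the 6 combinations has 2 libraries. The untreated course is the series' control arm, and it shows how these cells changed over the same hours without induced SOX7. No source used here says whether the 2 libraries of a group came from separate cultures, so the p-values below measure only the spread between these libraries, which may be technical.

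Haemogenic endothelium is the endothelium from which the first definitive blood cells emerge. In this endothelial-to-haematopoietic transition, flat endothelial cells round up, lose endothelial gene expression and take on blood gene expression, a process that requires the transcription factor RUNX1. SOX7 belongs to the SOXF family of endothelial transcription factors, which are active before and during this transition. In culture such cells give rise to erythroid, megakaryocytic and myeloid cells, of which macrophages are a major product.

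The untreated 24 h libraries held 14023523 and 33136142 counted reads and the untreated 12 h libraries 13846438 and 33028607. All 12 libraries lay between 13485804 and 35250074. Levels are given per library as CPM, read counts scaled to one common library size with TMM factors, and as the authors' deposited RPKM, which also divides by gene length, where different genes are set side by side. Mitochondrially encoded genes took 1.72% and 1.69% of the counts at 24 h and 1.71% and 1.60% at 12 h, and the 10 most abundant genes 5.74% and 5.62% at 24 h and 5.19% and 5.17% at 12 h. Libraries of one time were not alike in every list. The summed level of 21 erythroid genes was 3000 CPM in the first and 1951 CPM in the second 12 h replicate, and that of the nuclear-retained RNAs, a sign of RNA quality, 376 and 250 CPM. The 24 h replicates stood apart in the mast cell list, at 172 and 107 CPM. In bulk RNA a change in the number of cells of a type and a change in RNA per cell cannot be told apart.

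The endothelial label was checked against 30 endothelial marker genes, of which every one passed the filter on low counts. On the length-scaled RPKM scale, the vascular cadherin gene Cdh5 averaged 117 RPKM at 24 h and 129 RPKM at 12 h, the VEGF receptor gene Kdr 55.4 and 65.8 RPKM, and the adhesion gene Pecam1 50.8 and 54.8 RPKM. Runx1 stood at 16.0 RPKM at 24 h and 13.2 RPKM at 12 h, while the pan-leukocyte gene Ptprc (CD45) was at 0.736 and 0.265 RPKM. Other cell types were present in both groups by their markers. The fibrillar collagen gene Col1a1 averaged 369 RPKM at 24 h and 237 RPKM at 12 h, above Cdh5 at both times, and the embryonic beta-type globin gene Hbb-y 430.4 and 195 RPKM.

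Over the 12 h the cultures gained interferon response, macrophage, leukocyte, platelet, erythroid and fibrillar collagen transcripts, and lost endothelial, DNA replication, mitosis and ribosome transcripts. Of 15347 genes tested, 3440 (22.4%) passed an adjusted p of 0.05 by the quasi-likelihood test of edgeR, adjusted after Benjamini and Hochberg over all of them, with 1875 higher at 24 h (12.2%) and 1565 lower (10.2%). The rises were the larger changes: 404 genes (2.63%) were called with at least a 2-fold difference, 386 of them higher (2.52%) and 18 lower (0.117%). The median log2 fold change of all tested genes was 0.01. The count of calls rested in part on the number of libraries, with 2221 called without the first 24 h replicate, 2103 without the second 24 h replicate and 2227 without the second 12 h replicate, each fit assuming that the lone remaining library varies like the other groups.

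**Figure D1:**
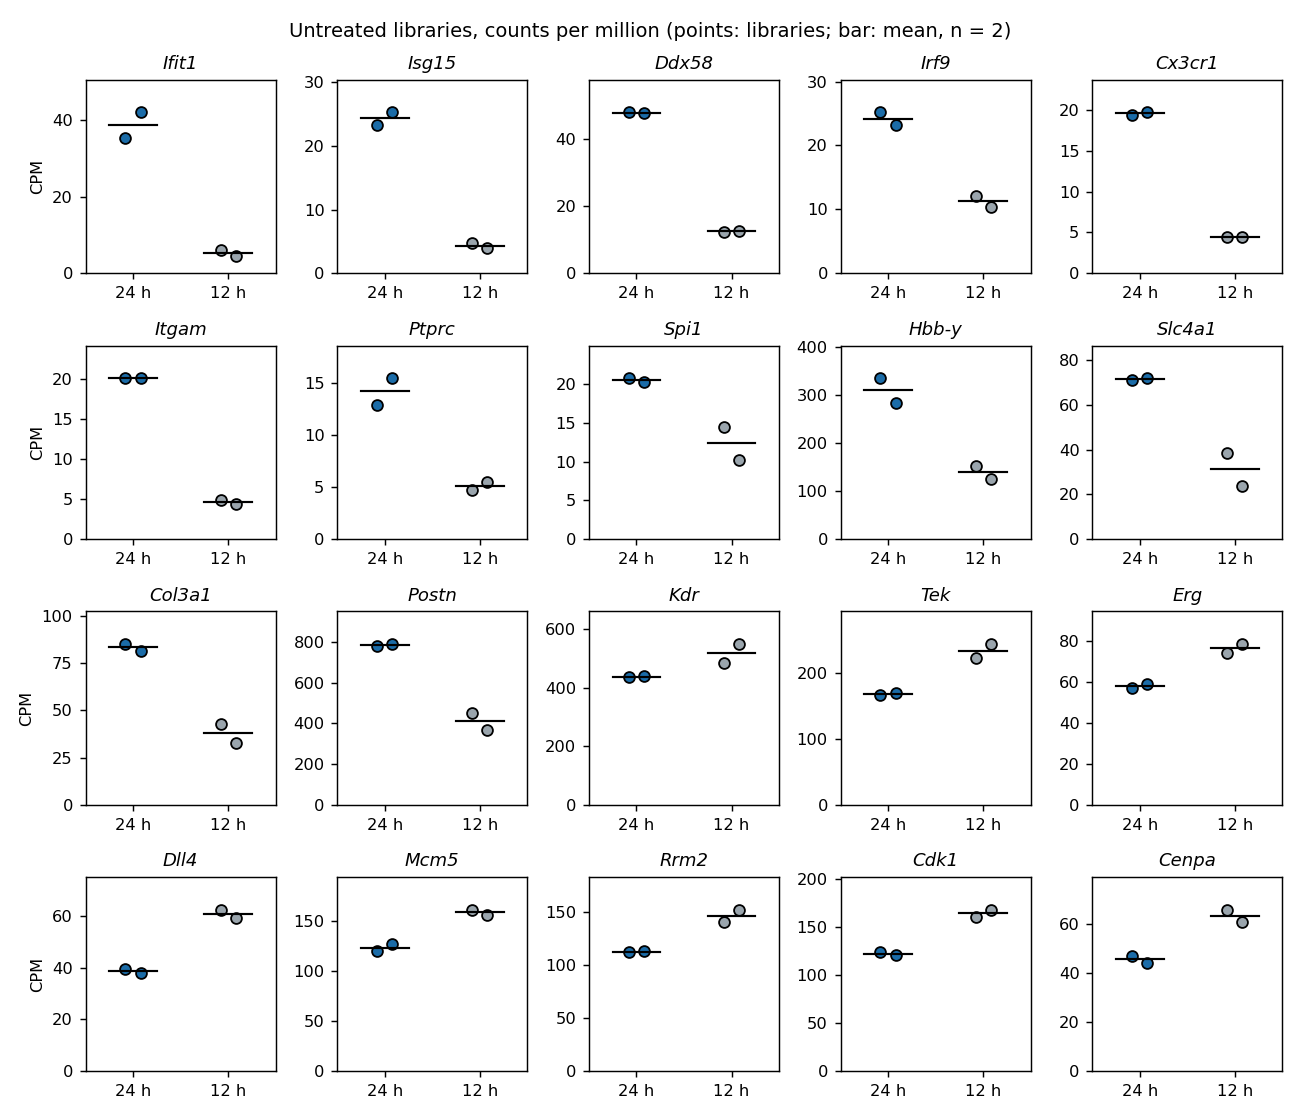
CPM of 20 genes in each untreated library, with the 24 h libraries on the left and the 12 h libraries on the right of each panel; points are single libraries and bars the mean (n = 2). Both 24 h points lie above both 12 h points for the interferon, macrophage, leukocyte, erythroid and collagen genes (Ifit1, 35.4 and 42.1 against 6.05 and 4.54 CPM), and below them for Kdr, Tek, Erg, Dll4, Mcm5, Rrm2, Cdk1 and Cenpa (Cdk1, 123 and 121 against 161 and 168 CPM). Of all tested genes 60.5% had no overlap between the times.

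Genes induced by interferon moved most. These genes are switched on by type I and type II interferons through STAT and IRF proteins, and their products block viral RNA or protein at several steps. Of the 32 listed effector genes, 30 were tested, and 24 of them would have passed the count filter without the 24 h libraries. All 24 of those were higher at 24 h, with a median log2 fold change of 1.88. Oas1a, Oas2, Oas3, Oasl1, Mx1 and Zbp1 passed the filter only through the 24 h libraries and so had to differ; Oas1g and Ifi27l2a were not tested. The summed level of the 32 genes was 566 and 606 CPM at 24 h, against 213 and 201 CPM at 12 h.

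The largest of the named rises was that of Ifit1 (chr19:34640871-34650009 on GRCm38), whose protein binds viral RNA lacking host cap modification. It had 35.4 and 42.1 CPM at 24 h, against 6.05 and 4.54 CPM at 12 h. Every 24 h library was far above every 12 h library, and the log2 fold change was 2.93 ± 0.15 (SE; adjusted p = 9.18e-15, edgeR). Ifit3 had 20.6 and 21.4 CPM at 24 h and 3.56 and 3.48 CPM at 12 h (log2 fold change 2.58), a call that carries the caution that near-identical Ifit copies can share reads. Isg15, a ubiquitin-like modifier, had 23.3 and 25.3 CPM against 4.77 and 3.91 CPM (2.53), and Usp18, the protease that removes it, 17.7 and 17.2 CPM against 3.49 and 3.12 CPM (2.42). For each of these genes the libraries of the 2 times did not overlap, which the rule that named them for their large rises required. The same held for 9280 (60.5%) of all tested genes, a share to set beside each such statement below.

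Sensors and antiviral enzymes followed. Ddx58, which encodes the RNA sensor RIG-I, had 48.0 and 47.7 CPM at 24 h and 12.5 and 12.5 CPM at 12 h (log2 fold change 1.94 ± 0.11, SE; adjusted p = 1.09e-13, edgeR). Rsad2, the antiviral enzyme viperin, had 58.1 and 64.7 CPM against 16.9 and 17.1 CPM (1.86), and Oasl2, of the oligoadenylate synthetase-like family, 9.01 and 8.89 CPM against 1.35 and 1.39 CPM (2.69). The 12 h libraries of Ddx58 and of Rsad2 lay close together and well below the 24 h pair. Xaf1 (2.21), the ring-finger gene Rnf213 (1.36 ± 0.06, SE; adjusted p = 2.05e-16, edgeR) and the immunity-related GTPase gene Igtp (1.97) rose as well. Igtp shares its strand and part of its locus with Irgm2, which had a log2 fold change of 1.60, so reads of the 2 genes may not have been separated. The chemokine gene Cxcl10 had 4.08 and 4.28 CPM at 24 h and 1.78 and 1.64 CPM at 12 h (1.31).

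The promoters of these genes are shown because interferon-stimulated genes are known to carry a response element read by STAT and IRF proteins. The letters GAAA, any 2 bases and GAAA again were searched on both strands of the 250 bases before each RefSeq start on GRCm38.p6. They were found in 9 of the 22 tested effector genes with a RefSeq promoter (40.9%), 2 of 18 upstream interferon genes (11.1%) and 3 of 23 macrophage genes (13%), against 3.46% of 27025 promoters in the table. Oas1a and Oas3, which hold matches, and Oasl1, which holds none, are among the 22 and passed the filter only through the 24 h libraries. A match describes letters and is not a shown binding site. In the stretches below the matching letters are in capitals; Isg15 holds overlapping matches. Ifit1 spans chr19:34640760-34640838 on the plus strand, Ifit3 chr19:34583348-34583441 on the plus strand, Isg15 chr4:156200850-156200921 on the minus strand and Rsad2 chr12:26456538-26456597 on the minus strand, each written 5′ to 3′ along its gene.
Ifit1: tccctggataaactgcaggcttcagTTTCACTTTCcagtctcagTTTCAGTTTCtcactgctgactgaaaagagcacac
Ifit3: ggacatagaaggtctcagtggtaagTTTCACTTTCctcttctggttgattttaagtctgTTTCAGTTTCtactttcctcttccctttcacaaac
Isg15: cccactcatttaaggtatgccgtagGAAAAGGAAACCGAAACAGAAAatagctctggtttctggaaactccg
Rsad2: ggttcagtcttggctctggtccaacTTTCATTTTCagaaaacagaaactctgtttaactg

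Upstream of these effectors the picture was more even. Of 22 tested receptors, STATs, IRFs and sensors, 21 passed the filter without the 24 h libraries; 12 of these were higher and none was lower at this threshold, with a median log2 fold change of 0.30. Tlr9 passed only through the 24 h libraries, and Ifnb1 was not tested. Irf9, a subunit of the complex that type I interferon activates, had 25.2 and 23.2 CPM at 24 h and 12.2 and 10.4 CPM at 12 h (log2 fold change 1.11 ± 0.12, SE; adjusted p = 1.04e-07, edgeR), with both 24 h libraries above both 12 h libraries. Its partner Stat2 had 48.4 and 50.1 CPM against 37.7 and 34.2 CPM (0.47). Irf9 overlaps Rnf31 on the same strand, which had a log2 fold change of 0.29. Irf8, a myeloid and interferon-responsive factor, was at 3.86 and 3.22 CPM at 24 h and 0.641 and 1.03 CPM at 12 h (1.97).

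Antigen presentation genes, many of them interferon targets, rose in part. Among 15 that passed the filter without the 24 h libraries, 9 were higher and none lower, with a median log2 fold change of 0.70; Psmb9 and Nlrc5 passed only through the 24 h libraries, and H2-Eb1 and Ciita were not tested. Psmb8, an immunoproteasome subunit, had 5.00 and 3.85 CPM at 24 h and 0.783 and 0.908 CPM at 12 h (2.32). The peptide transporter subunits Tap1 and Tap2 had log2 fold changes of 1.29 and 1.78, and their partner Tapbp 0.75. Inflammatory NF-κB targets were called in 20% of 15 tested cases, Tnf included, near the 22.4% of all tested genes. Of 14 on the same footing, 2 were higher and none lower (median 0.14), the inhibitor genes Nfkbiz at 0.42 and Bcl3 at 0.41. Both calls were fragile, that of Nfkbiz being lost without the first 24 h, first 12 h or second 12 h replicate (adjusted p 0.0574 to 0.0985) and that of Bcl3 without the first 24 h, second 24 h, first 12 h or second 12 h replicate (adjusted p 0.0722 to 0.185). Tnf passed the filter only through the 24 h libraries, at 1.14 and 1.00 CPM against 0.214 and 0.424 CPM, and Il1b, Ccl5, Cxcl2 and Saa3 were not tested.

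**Figure D2:**
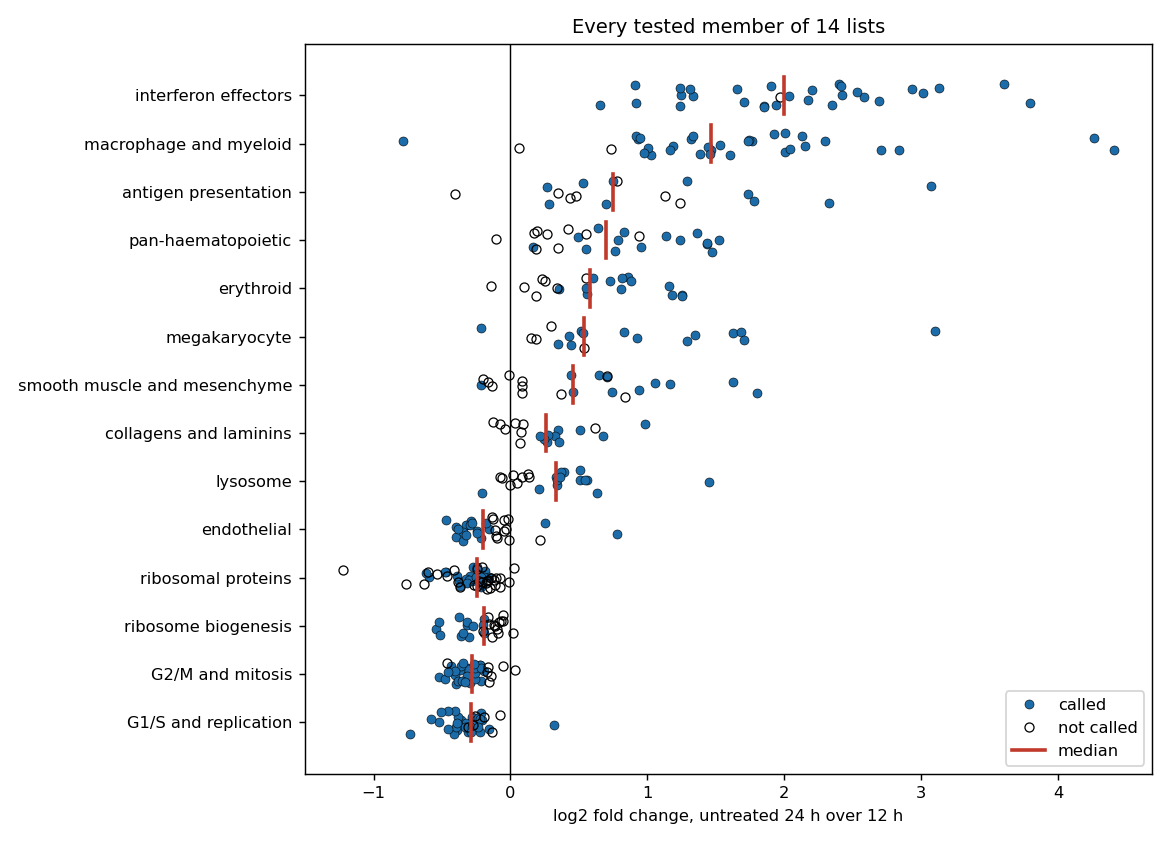
Log2 fold change (untreated 24 h over 12 h, horizontal axis) of every tested member of 14 gene lists, one row per list; filled points were called at an adjusted p of 0.05, open points were not, and red bars mark medians. Members that passed the filter only through the 24 h libraries are included. The interferon effectors and macrophage genes lie mostly to the right of 0, while the replication, mitosis and ribosome lists lie mostly between 0 and -1.

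Macrophage and myeloid genes rose nearly as far. Of 37 listed genes, 33 were tested, and 29 passed the filter without the 24 h libraries: 26 of these were higher and 1 was lower, with a median log2 fold change of 1.44. Fcgr1, C1qc, Ctss and Trem2 passed only through the 24 h libraries, and C1qa, Aif1, Msr1 and Lyz1 were not tested, Lyz1 being at 0 in the libraries. The summed level of the list was 575 and 593 CPM at 24 h and 307 and 285 CPM at 12 h, so this list of another cell type was higher alongside the interferon genes, and its part in their rise was not tested. In the same promoter windows, letters read by the myeloid factor PU.1 (GAGGAAGT, either strand) preceded 1 of 23 macrophage genes (4.35%). They preceded 2 of 19 pan-haematopoietic genes (10.5%) and 2.79% of all. The macrophage match was in C1qc. Such a match shows no binding.

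Cx3cr1, the fractalkine receptor gene of monocytes and macrophages, had 19.4 and 19.7 CPM at 24 h and 4.42 and 4.39 CPM at 12 h. The 2 pairs were widely separated, with a log2 fold change of 2.15 ± 0.16 (SE; adjusted p = 5.69e-11, edgeR), and the gene's locus overlaps Gorasp1 and Csrnp1 on the same strand, each of which had a log2 fold change of 0.20. Itgam, the integrin alpha chain CD11b, had 20.1 and 20.0 CPM at 24 h and 4.91 and 4.39 CPM at 12 h (2.13). The perforin-like gene Mpeg1 (1.93), the Fc receptor gamma chain Fcer1g (1.76), the Toll-like receptor relative Cd180 (1.91) and Igsf6 (2.29) rose in both libraries. Igsf6 lies inside Mettl9 on the opposite strand, whose mean level was 124 CPM at both times. The chemokine genes Ccl9 and Ccl6 were also higher, Ccl9 with 120.3 and 127 CPM against 52.3 and 43.4 CPM (1.39) and Ccl6 with 46.6 and 48.3 CPM against 17.7 and 17.0 CPM (1.46). Spp1, which encodes osteopontin, had 111 and 119.8 CPM at 24 h and 44.9 and 44.4 CPM at 12 h (1.37 ± 0.07, SE; adjusted p = 2.48e-14, edgeR).

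The exception in the list was Mrc1, the mannose receptor gene, with 29.4 and 24.4 CPM at 24 h and 40.9 and 49.1 CPM at 12 h. Both 24 h libraries were below both 12 h libraries (log2 fold change -0.78 ± 0.11, SE; adjusted p = 2.26e-06, edgeR). Mrc1 is also expressed by some endothelia. Granule protein genes were mostly near absence: 5 of 16 were tested, 3 of them higher, and Elane, Camp, Ngp, S100a9 and Prg2 were at 0. The 3 were Hp, haptoglobin (26.1 and 27.9 CPM against 8.19 and 6.42 CPM, 1.93), the proteoglycan gene Srgn (1.18) and the myeloperoxidase gene Mpo (27.7 and 27.2 CPM against 23.6 and 20.4 CPM, 0.34). The call for Mpo was lost without the first 24 h, second 24 h or second 12 h replicate (adjusted p 0.131 to 0.348; 0.22 without the second 12 h replicate).

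Genes shared by most blood cells rose together. Of 24 tested pan-haematopoietic genes, 15 were higher and none lower, with a median log2 fold change of 0.70, and their summed level was 1812 and 1804 CPM at 24 h and 1425 and 1377 CPM at 12 h. Ptprc had 12.9 and 15.5 CPM at 24 h and 4.70 and 5.48 CPM at 12 h (log2 fold change 1.47 ± 0.18, SE; adjusted p = 5.05e-07, edgeR), with no overlap between the times. Coro1a, a leukocyte actin regulator, had 20.2 and 21.5 CPM against 7.83 and 7.69 CPM (1.43), and the actin-bundling gene Lcp1 60.4 and 63.4 CPM against 33.7 and 30.9 CPM (0.95). Plek, the pleckstrin gene of platelets and leukocytes, had 378 and 397 CPM against 221 and 215 CPM (0.83), and Laptm5 changed by 0.78. Il10ra and Cytip, a receptor and an adaptor gene of leukocytes, changed by 1.63 and 1.41.

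Megakaryocyte and platelet genes rose in 13 of 18 tested cases, with 1 lower and a median log2 fold change of 0.53. Gp5, a subunit of the platelet von Willebrand factor receptor, had 10.1 and 9.35 CPM at 24 h and 3.49 and 2.73 CPM at 12 h (1.68), and its partner Gp1ba 16.2 and 15.7 CPM against 8.76 and 8.12 CPM (0.93). The platelet tubulin gene Tubb1 changed by 1.35 and the integrin gene Itgb3 by 0.52, Itgb3 having 421 and 429 CPM against 308 and 286 CPM. In each of these the 24 h pair lay above the 12 h pair, while 60.5% of all tested genes had no overlap in either direction. The gene that fell was Rap1b, a widely expressed small GTPase (-0.22), and that call was lost without the first 24 h, second 24 h or first 12 h replicate (adjusted p 0.0701 to 0.103). Itga2b, the integrin chain CD41 that marks emerging blood cells, had 66.1 and 65.5 CPM at 24 h and 61.5 and 54.7 CPM at 12 h and did not pass the test (0.19; adjusted p = 0.052, edgeR).

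Erythroid genes were higher in 13 of 20 tested cases, with none lower and a median log2 fold change of 0.58, but this count depended on single libraries. Their summed level was 3340 and 3051 CPM at 24 h, and 3000 and 1951 CPM at 12 h. Without the first 12 h replicate 18 were higher with a median of 0.94, and without the second 12 h replicate 8 were higher with a median of 0.24. Without the first 24 h replicate 8 were higher. Hbb-y had 335 and 284 CPM at 24 h and 152 and 126 CPM at 12 h (log2 fold change 1.16 ± 0.08, SE; adjusted p = 6.78e-12, edgeR), and the alpha-globin gene Hba-a1 76.4 and 63.9 CPM against 47.3 and 31.6 CPM (0.86). The globin genes of a cluster are close copies that can share reads. Slc4a1, the red cell anion exchanger, had 71.1 and 72.0 CPM against 38.6 and 23.8 CPM (1.25), and Alas2, the first enzyme of erythroid haem synthesis, 61.0 and 58.3 CPM against 39.8 and 26.8 CPM (0.88). In these 4 genes the first 12 h replicate was the higher of the 12 h pair and still below both 24 h libraries. Of all tested genes 60.5% had no overlap between the times. Without the second 12 h replicate the log2 fold changes of Hba-a1 and Alas2 were 0.56 and 0.58.

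Mast cell and lymphoid genes were sparse. Of 11 mast cell genes, 4 were tested and 1 was called, Gata2, which is also a factor of blood stem cells and endothelium; Cma1, Tpsab1, Tpsb2 and Fcer1a were at 0, and Mcpt8 and Hdc passed the filter only through the 24 h libraries. Of 20 lymphoid genes, 5 were tested and 1 was called, Il7r, at 2.65 and 2.82 CPM at 24 h and 1.35 and 0.908 CPM at 12 h (1.35), a call lost without the second 24 h or second 12 h replicate (adjusted p 0.105 to 0.215). Cd3e, Cd3g, Cd3d, Cd4, Ms4a1, Rag2 and Pax5 were at 0.

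Among 26 tested blood transcription factors, 8 were higher, 4 were lower and the median log2 fold change was 0.00. Runx1 (chr16:92601466-92826149), the factor that drives the transition, had 210.3 and 203 CPM at 24 h and 173 and 166 CPM at 12 h. Both 24 h libraries exceeded both 12 h libraries, with a log2 fold change of 0.29 ± 0.06 (SE; adjusted p = 4.82e-04, edgeR). Spi1 (PU.1), the myeloid master factor, had 20.8 and 20.3 CPM against 14.5 and 10.3 CPM (0.77 ± 0.15, SE; adjusted p = 3.84e-04, edgeR), a call lost without the second 12 h replicate (0.50; adjusted p = 0.0637). Cebpb, another myeloid factor, had 44.7 and 37.6 CPM against 26.6 and 26.0 CPM (0.63). Those that fell were the ETS factors Fli1 (-0.40) and Erg (-0.40), Gata2 (-0.39) and Lmo2 (-0.20), which are shared by blood progenitors and endothelium. The Gata2 call was lost without the second 24 h replicate (-0.28; adjusted p = 0.117) and the Lmo2 call without the first 24 h, second 24 h, first 12 h or second 12 h replicate (adjusted p 0.0782 to 0.19).

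The RUNX1 targets Gfi1 and Gfi1b, repressors that shut down endothelial genes, did not pass the test. Gfi1 had 4.43 and 5.64 CPM at 24 h and 6.69 and 6.96 CPM at 12 h (-0.40; adjusted p = 0.0833, edgeR), and Gfi1b 22.7 and 19.8 CPM against 17.8 and 16.6 CPM (0.30; adjusted p = 0.121). The 2 pairs did not overlap in either gene, as they did not for 60.5% of all tested genes. Kit, the stem cell factor receptor gene, had 142 and 81.8 CPM at 24 h and 91.0 and 81.7 CPM at 12 h, with the first replicate high at 24 h and the second level with the 12 h libraries (0.35; adjusted p = 0.0551, edgeR). Without the first 24 h replicate its log2 fold change was -0.08.

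Endothelial genes drifted down. Of 30 tested, 17 were lower and 2 higher, with a median log2 fold change of -0.20 and a largest fall of -0.47; their summed level was 4907 and 4848 CPM at 24 h and 5336 and 5781 CPM at 12 h. The count was 9 without the second 12 h replicate and 11 without the second 24 h replicate. Tek, the angiopoietin receptor TIE2, had 167 and 170.0 CPM at 24 h and 222 and 245 CPM at 12 h (log2 fold change -0.47 ± 0.06, SE; adjusted p = 2.47e-07, edgeR). The VEGF receptor genes Flt1 and Kdr had 171 and 176 against 211 and 223 CPM (-0.32) and 438 and 439 against 485 and 551 CPM (-0.24), and Rasip1, a regulator of vessel lumen formation, changed by -0.38. For Tek, Flt1 and Kdr both 24 h libraries were below both 12 h libraries, while 60.5% of all tested genes had no overlap in either direction. The Kdr call was lost without the second 12 h replicate (-0.14; adjusted p = 0.0937). Cdh5 had 516 and 504 CPM at 24 h and 529 and 581 CPM at 12 h and did not pass the test (-0.12; adjusted p = 0.0981, edgeR).

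The 2 endothelial genes that rose were Vwf and Cldn5. Vwf, the von Willebrand factor gene, which megakaryocytes also express, had 10.4 and 10.4 CPM at 24 h and 6.69 and 5.66 CPM at 12 h (0.78 ± 0.16, SE; adjusted p = 4.81e-04, edgeR). Cldn5, a tight junction gene, had 49.0 and 53.3 CPM against 41.3 and 44.6 CPM (0.25), a call lost without the second 24 h, first 12 h or second 12 h replicate (adjusted p 0.0515 to 0.302). Among the SOXF genes, Sox18 had 98.7 and 91.5 CPM at 24 h and 113 and 126 CPM at 12 h (-0.35 ± 0.06, SE; adjusted p = 1.14e-04, edgeR). Sox7, in these cells without inducer, had 52.5 and 52.1 CPM against 55.6 and 68.8 CPM (-0.27; adjusted p = 0.00482, edgeR), with the second 12 h replicate well above the first. That call was lost without the second 24 h or second 12 h replicate (adjusted p 0.0585 to 0.486; -0.09 without the second 12 h replicate). Sox17 had 60.3 and 59.8 CPM against 63.2 and 60.1 CPM, overlapping between the times (-0.03).

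Arterial and Notch genes moved both ways, with 5 of 20 higher, 6 lower and a median log2 fold change of -0.04. Dll4, the arterial Notch ligand, had 39.8 and 38.1 CPM at 24 h and 62.7 and 59.4 CPM at 12 h, a clear gap between the pairs (-0.65 ± 0.07, SE; adjusted p = 5.45e-08, edgeR). The connexin genes Gja4 and Gja5 went opposite ways, Gja4 with 143 and 149.5 CPM against 182 and 207 CPM (-0.41) and Gja5 with 57.1 and 66.7 CPM against 41.8 and 51.3 CPM (0.40). The semaphorin and VEGF co-receptor gene Nrp1 (0.46), the Notch ligand gene Jag1 (0.46), the Wnt antagonist gene Dkk2 (0.53) and the Notch target gene Heyl (0.94) were higher. The call for Gja5 was lost without the second 24 h replicate (0.27; adjusted p = 0.0896), that for Jag1 without the second 24 h replicate (0.33; adjusted p = 0.0536) and that for Heyl without the second 24 h or second 12 h replicate (adjusted p 0.101 to 0.431; 0.41 without the second 12 h replicate).

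Venous and lymphatic genes were as divided: of 13 tested that passed the filter without the 24 h libraries, 3 were higher and 3 lower. Aplnr, the apelin receptor gene of veins and mesodermal progenitors, had 99.0 and 101 CPM at 24 h and 153 and 171 CPM at 12 h, the largest fall of the list (-0.70 ± 0.06, SE; adjusted p = 1.25e-09, edgeR). Lyve1 (-0.33) and the VEGF-C receptor gene Flt4 (-0.29) were also lower, and Dab2, an endocytic adaptor (0.52), and Prox1, the lymphatic master factor (0.52), were higher. Flt4 was no longer called without the second 12 h replicate (-0.20; adjusted p = 0.117), Lyve1 without the first 24 h or first 12 h replicate (adjusted p 0.0782 to 0.11) or Prox1 without the second 24 h replicate (0.40; adjusted p = 0.0661). Nr2f1 passed the filter only through the 24 h libraries.

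Genes of DNA replication and of mitosis were lower almost throughout. The first group, transcribed at the G1/S boundary, builds replication origins and nucleotides, and the second builds the spindle. Of 37 G1/S genes tested, 30 were lower and 1 higher, with a median log2 fold change of -0.29. Of 36 G2/M genes, 29 were lower and none higher, with a median of -0.28. Summed levels were 2054 and 2081 CPM at 24 h against 2558 and 2480 CPM at 12 h for G1/S, and 3079 and 3187 CPM at 24 h against 3825 and 3755 CPM at 12 h for G2/M. The G1/S count was 19 without the second 24 h replicate.

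Mcm5, a subunit of the replicative helicase, had 120.3 and 127 CPM at 24 h and 162 and 156 CPM at 12 h (log2 fold change -0.36 ± 0.06, SE; adjusted p = 1.70e-05, edgeR). The ribonucleotide reductase subunit Rrm2 had 112 and 113 CPM against 141 and 152 CPM (-0.38), and the dUTPase gene Dut 26.2 and 29.3 CPM against 40.9 and 38.9 CPM (-0.51). Ccne2, the cyclin that starts S phase, had 26.8 and 26.9 CPM against 50.1 and 40.5 CPM (-0.73). All 4 genes had both 24 h libraries below both 12 h libraries, while 60.5% of all tested genes had no overlap in either direction. The exception was E2f2 (0.32; adjusted p = 0.0473, edgeR), whose call was lost without the first 24 h, second 24 h or second 12 h replicate (adjusted p 0.0702 to 0.417; 0.20 without the second 12 h replicate).

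Cdk1, the mitotic kinase, had 123 and 121 CPM at 24 h and 161 and 168 CPM at 12 h (-0.43 ± 0.06, SE; adjusted p = 2.76e-06, edgeR). The centromeric histone gene Cenpa had 47.0 and 44.2 CPM against 66.0 and 60.9 CPM (-0.48), the kinetochore gene Nuf2 37.7 and 40.0 CPM against 52.3 and 54.5 CPM (-0.45), and the cytokinesis gene Anln 143 and 142 CPM against 179.9 and 184 CPM (-0.35). The falls of the 4 genes were of similar size and none of the pairs overlapped, as was so for 60.5% of all tested genes. Regulators of the cycle, brakes and drivers counted together, rose in part. Of 15 D cyclins, CDK inhibitors and RB family genes, 8 were higher and none lower (median 0.21). Cdkn1a, which encodes p21, had 395 and 394 CPM at 24 h and 251 and 292 CPM at 12 h (0.53 ± 0.06, SE; adjusted p = 9.37e-08, edgeR), and Cdkn2b (0.54) and Cdkn1c (0.29) were also higher. Ccnd2, a D cyclin that promotes rather than brakes the cycle, rose too, at 1028 and 1044 CPM against 789.9 and 846 CPM (0.34). Of 18 p53 targets 8 were higher and none lower (median 0.16), led by Pmaip1 (0.77), Perp (0.59) and Btg2 (0.41).

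Promoters of one gene of each phase are shown because the factors that time these genes, E2F proteins for G1/S and the DREAM and MuvB complexes for G2/M, read known elements. An E2F-type sequence (TTTCCCGC or TTTGGCGC, either strand) was found before 5 of 30 G1/S genes (16.7%) and 0 of 30 G2/M genes, against 1.51% of all 27025 promoters. The CHR element (TTTGAA, either strand) was found before 10 of 30 G2/M genes (33.3%) and 4 of 30 G1/S genes (13.3%), against 18.3% of all, and CCAAT before 23 (76.7%) and 19 (63.3%), against 37.5% of all. Matches of these short letters describe the windows and show no binding. The bases after the RefSeq start used for Mcm5 were not found in a reference transcript of that gene, unlike those for Cdk1. Mcm5 spans chr8:75109335-75109392 on the plus strand with its E2F-type letters in capitals, and Cdk1 chr10:69352913-69353008 on the minus strand with its 2 CHR matches in capitals.
Mcm5: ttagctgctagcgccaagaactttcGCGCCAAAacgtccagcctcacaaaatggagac
Cdk1: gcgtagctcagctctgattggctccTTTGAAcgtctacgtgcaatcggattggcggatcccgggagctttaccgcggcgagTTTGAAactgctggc

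**Figure D3:**
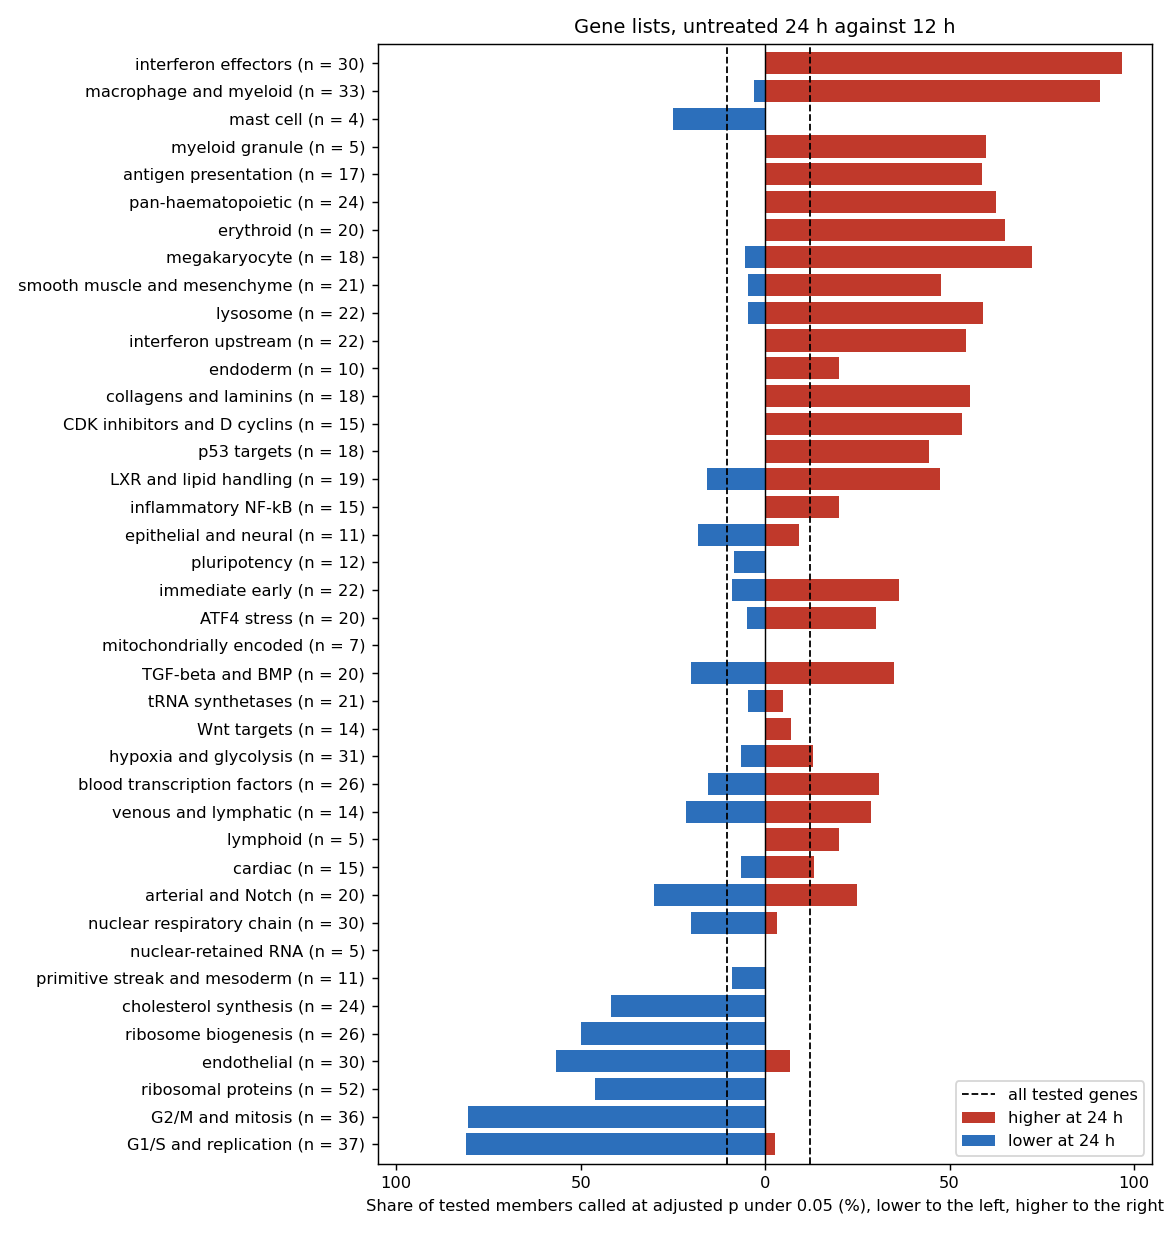
Percent of the tested members of 40 gene lists that were called higher at 24 h (red, to the right) or lower (blue, to the left), ordered by the median log2 fold change; dashed lines mark all tested genes, 12.2% higher and 10.2% lower. Members that passed the filter only through the 24 h libraries are included, which raises the shares of the interferon and macrophage lists. Interferon effectors, macrophage and leukocyte genes fill the right side, and replication, mitosis and ribosome genes the left.

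Translation genes fell modestly. Ribosomal protein genes were lower in 24 of 52 tested cases and higher in none, with a median log2 fold change of -0.24, and ribosome biogenesis genes in 13 of 26, with none higher and a median of -0.19. The first count fell to 10 without the first 12 h replicate and to 7 without the second 24 h replicate, and the second to 8 without the second 24 h replicate. Rpl7 had 168 and 162 CPM at 24 h and 203 and 201 CPM at 12 h (-0.29), and Rpl5 19.3 and 18.9 CPM against 31.3 and 26.8 CPM (-0.59). Ribosomal protein genes have many processed copies that can take their reads. Of 1260 tested pseudogenes, 14 were higher and 162 lower, against 1834 and 1389 of 13455 protein-coding genes. The nucleolar genes Gnl3 (-0.52), Dkc1 (-0.51), Nop56 (-0.36) and Nop58 (-0.35) were lower, Dkc1 having 45.7 and 48.5 CPM at 24 h and 67.6 and 67.5 CPM at 12 h with no overlap.

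Nuclear-encoded respiratory chain genes were lower in 6 of 30 cases and higher in 1 (median -0.08), among them Cox6c (-0.30), with the ATP synthase gene Atp5d the one that was higher (0.19). The share called, 23.3%, was near the 22.4% of all tested genes. The Cox6c call was lost without the first 24 h, second 24 h or first 12 h replicate (adjusted p 0.063 to 0.105) and the Atp5d call without the first 24 h or second 12 h replicate (adjusted p 0.36 to 0.525; 0.08 without the first 24 h replicate; 0.11 without the second 12 h replicate). None of the 7 tested mitochondrially encoded genes was called by edgeR or DESeq2, nor was any at an unadjusted p of 0.05, and 6 more were listed at 0. Of 5 tested nuclear-retained RNAs 0 were called by either tool, with 2 at an unadjusted p under 0.05 in edgeR (median -0.12). Cholesterol synthesis genes were lower in 10 of 24 cases and higher in none, with a median log2 fold change of -0.14. Msmo1, a sterol methyl oxidase, had 216 and 215 CPM at 24 h and 298 and 289 CPM at 12 h (-0.44 ± 0.05, SE; adjusted p = 4.60e-07, edgeR). Both 24 h libraries were below both 12 h libraries. The count was 6 without the second 12 h replicate and 4 without the second 24 h replicate.

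Lipid handling and lysosome genes, prominent in macrophages, rose instead. Among 18 LXR and lipid handling genes that passed the filter without the 24 h libraries, 9 were higher and 3 lower (median 0.16). Lpl, lipoprotein lipase, had 98.9 and 109 CPM at 24 h and 34.8 and 31.9 CPM at 12 h (1.65 ± 0.08, SE; adjusted p = 9.18e-15, edgeR), and the cholesterol exporter gene Abca1 35.5 and 36.9 CPM against 17.5 and 17.9 CPM (1.03). The 3 lower genes were the apolipoprotein gene Apoe (-0.21) and the fatty acid synthesis genes Scd1 (-0.16) and Fasn (-0.14), of which Scd1 was no longer called without the first 24 h, second 24 h or first 12 h replicate (adjusted p 0.056 to 0.111) and Fasn without the first 24 h, second 24 h or second 12 h replicate (adjusted p 0.137 to 0.226). Lysosome genes were higher in 13 of 22 cases and lower in 1 (median 0.33). The protease gene Ctsb had 399 and 403 CPM at 24 h and 266 and 277 CPM at 12 h (0.56), Ctsd 1032 and 979 CPM against 689.7 and 723 CPM (0.51) and Gpnmb, a lysosomal glycoprotein of macrophages, 28.7 and 28.5 CPM against 12.3 and 9.24 CPM (1.45). Ctsl was the one that was lower (-0.21), a call lost without the first 24 h, second 24 h or second 12 h replicate (adjusted p 0.0729 to 0.151). The macrophage list rose beside these genes, as given above, and its part in their rise was not tested.

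Mesenchymal and matrix genes formed the other rising block. Smooth muscle and mesenchymal genes were higher in 10 of 21 cases and lower in 1, with a median log2 fold change of 0.46, and their summed level was 10544 and 10261 CPM at 24 h and 8579 and 8702 CPM at 12 h. Col3a1, a fibrillar collagen, had 85.1 and 81.5 CPM at 24 h and 42.7 and 33.0 CPM at 12 h (1.16 ± 0.10, SE; adjusted p = 3.84e-10, edgeR). Postn, the matricellular protein periostin, had 778 and 790.4 CPM against 452 and 368 CPM (0.94), and Col1a1 2721 and 2555 CPM against 1705 and 1662 CPM (0.65). The 24 h libraries were uniformly the higher ones, while 60.5% of all tested genes had no overlap in either direction. Tagln, a smooth muscle actin-binding gene, went the other way, at 708 and 675 CPM against 784 and 818 CPM (-0.21), but was no longer called without the first 24 h, second 24 h or second 12 h replicate (adjusted p 0.0928 to 0.237). Of 18 further collagen and laminin genes, 10 were higher and none lower (median 0.26), from Lamb1 (0.35) and Col5a1 (0.51) to Col15a1 (0.99).

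Among 20 TGF-β and BMP genes, 7 were higher and 4 lower (median 0.03). The TGF-β-induced matrix gene Tgfbi had 137 and 134 CPM at 24 h and 83.2 and 71.1 CPM at 12 h (0.83 ± 0.07, SE; adjusted p = 3.45e-10, edgeR), and Ltbp1, which binds latent TGF-β, changed by 0.36. The lower ones were all on the BMP side, namely the BMP targets Id1 (60.1 and 57.8 CPM against 73.9 and 84.5 CPM, -0.44), Id3 (-0.53) and Smad6 (-0.35) and the ligand gene Bmp4 (-0.19), whose call was lost without the first 24 h, second 24 h or second 12 h replicate (adjusted p 0.0534 to 0.237).

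The following lists had medians near 0, although 45.5% of the immediate early and 35.0% of the ATF4 stress genes were called, against 22.4% of all tested genes. Of 22 immediate early genes 8 were higher and 2 lower (median 0.07), Ier3 at 0.70 and Egr1 at 0.56 against Dusp1 at -0.33 and Klf6 at -0.17. Dusp1 was no longer called without the second 24 h or second 12 h replicate (adjusted p 0.0503 to 0.0968), and Klf6 without the first 24 h or second 12 h replicate (adjusted p 0.118 to 0.276; -0.09 without the second 12 h replicate). Of 20 ATF4 stress genes 6 were higher, among them Ddit4 (0.33) and Sesn2 (0.29), and 1 lower, the serine synthesis gene Psat1 (-0.46), with a median of 0.05. Ddit4 was no longer called without the second 12 h replicate (0.22; adjusted p = 0.0518). Hypoxia and glycolysis genes were higher in 4 and lower in 2 of 31 cases (median 0.00), with P4ha2 at 0.45 and Slc2a3 at -0.27. Of 21 tRNA synthetase genes 1 was higher, Sars (0.16), and 1 lower, Vars (-0.15). The Sars call was lost without the first 24 h, second 24 h, first 12 h or second 12 h replicate (adjusted p 0.0609 to 0.221) and the Vars call without the second 24 h, first 12 h or second 12 h replicate (adjusted p 0.0935 to 0.297). One of 13 Wnt targets that passed the filter without the 24 h libraries was higher, Rnf43 (0.95), a call lost without the second 24 h or second 12 h replicate (adjusted p 0.0923 to 0.375; 0.51 without the second 12 h replicate).

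Genes of other lineages were called in 8.33% to 27.3% of cases per list, against 22.4% of all tested genes. Of 15 tested cardiac genes 2 were higher, Tnni1 (0.73) and Mef2c (0.30), and 1 lower, Actc1 (-0.62); the Tnni1 call was lost without the second 12 h replicate (0.40; adjusted p = 0.141) and the Mef2c call without the second 24 h or second 12 h replicate (adjusted p 0.0591 to 0.152). Endoderm genes were higher in 2 of 10 cases, Cdh1 (0.60) and Gata6 (0.35), and epithelial and neural genes in 1 of 11, again Cdh1, and lower in 2, Krt18 (-0.23) and Tubb3 (-0.23), the call for Tubb3 being lost without the second 24 h or second 12 h replicate (adjusted p 0.205 to 0.229). Of 12 pluripotency genes 1 was lower, Lin28a, a blocker of let-7 microRNA processing, at 209.5 and 224 CPM at 24 h and 322 and 364 CPM at 12 h (-0.66 ± 0.06, SE; adjusted p = 4.20e-10, edgeR). Of 11 primitive streak and mesoderm genes 1 was lower, Etv2, the factor that opens the endothelial programme, at 1.43 and 1.18 CPM against 2.92 and 2.30 CPM (-1.0). Etv2 was no longer called without the second 24 h or first 12 h replicate (adjusted p 0.0639 to 0.15).

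The largest falls outside the lists were in genes of low to moderate level. Oit3, a secreted protein gene of liver and some endothelia, had 25.0 and 23.2 CPM at 24 h and 53.8 and 64.0 CPM at 12 h, and 90.6 and 94.0 CPM at 6 h (log2 fold change -1.32 ± 0.09 for 24 h over 12 h, SE; adjusted p = 3.04e-12, edgeR). Sost, the Wnt antagonist sclerostin, had 4.36 and 5.67 CPM at 24 h and 11.3 and 15.6 CPM at 12 h, well below its 6 h level of 42.6 and 41.1 CPM (-1.42). The nuclear receptor gene Nr5a2 had 0.858 and 1.79 CPM against 3.77 and 3.85 CPM (-1.37). In all 3 genes both 24 h libraries were below both 12 h libraries, which the rule that named them for their large falls required. Tnfaip8l3 (-2.06) and the zinc transporter gene Slc30a3 (-1.56) were near 1 CPM or below at 24 h. Tnfaip8l3 was no longer called without the second 12 h replicate (-1.40; adjusted p = 0.101). Without the second 24 h replicate the falls were larger, at -2.15 for Nr5a2 and -2.72 for Slc30a3.

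Hapln1, a hyaluronan link protein gene, had 491 and 509 CPM at 24 h and 845 and 949.9 CPM at 12 h (-0.84 ± 0.07, SE; adjusted p = 1.26e-10, edgeR). Rnd2, a small GTPase gene, had 50.8 and 52.7 CPM against 78.1 and 83.7 CPM (-0.65), and the homeobox gene Hoxb5 9.29 and 8.25 CPM against 15.6 and 16.4 CPM (-0.89). The falls of Hmcn1, Lrr1, Gchfr, Zbtbd6, Rnf165, Grin3a, Lhx6 and Slc32a1 were between -0.85 and -1.01. Of these, Slc32a1 lost its call without the first 24 h, second 24 h or first 12 h replicate (adjusted p 0.0928 to 0.242; -0.65 without the first 12 h replicate), Lhx6 without the first 24 h or second 12 h replicate (adjusted p 0.126 to 0.371), Grin3a without the second 24 h replicate (-0.81; adjusted p = 0.0532) and Rnf165 without the second 12 h replicate (-0.64; adjusted p = 0.0664). Among the largest rises outside the lists was Slc8a1, a sodium-calcium exchanger gene, with 6.58 and 5.40 CPM at 24 h and 1.42 and 1.54 CPM at 12 h (1.97).

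For some genes the change from 12 to 24 h differed from that of the preceding 6 h. The step from 6 to 12 h shares the 12 h libraries with the step from 12 to 24 h, so a high or low 12 h value moves both steps in opposite directions. The earlier step had 1145 called genes (7.46%), 674 of them higher at 12 h (4.39%) and 471 lower (3.07%), and the difference between the 2 steps was called for 64 genes (0.417%), 41 with a higher (0.267%) and 23 with a lower change (0.15%) in the later step. This count was 6 without the second 12 h replicate, 22 without the second and 30 without the first 24 h replicate, and 36 without the second 6 h replicate, the last being a check chosen after seeing the data. Dll4 had 39.7 and 41.5 CPM at 6 h, 62.7 and 59.4 CPM at 12 h and 39.8 and 38.1 CPM at 24 h, a peak at 12 h (difference of the log2 changes -1.24 ± 0.12, SE; adjusted p = 5.10e-07, edgeR). Egr1, an immediate early gene, had 34.0 and 35.8 CPM at 6 h, 16.2 and 15.4 CPM at 12 h and 25.7 and 21.2 CPM at 24 h, a trough at 12 h (1.71 ± 0.20, SE; adjusted p = 1.88e-05). Both calls held without each of the 6 untreated libraries, though in fits to log2 RPKM values the one for Egr1 did not (adjusted p = 0.0635 and 0.0895 with pseudocounts of 0.5 and 0.1, limma).

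Dll4 and Egr1 were the 2 of 23 named genes with a called difference between the steps for which the call held in all of these fits. The interferon genes Rnf213, Ddx58, Rsad2 and Ifit3 were called higher in both steps, with the larger change in the later step, which is also the longer one. The difference was 0.70 for Rnf213, a call lost without the second 12 h replicate (0.67; adjusted p = 0.0732). Ddx58 had a difference of 1.08, lost without the second 24 h, second 12 h or first 6 h replicate (adjusted p 0.0576 to 0.192), and Rsad2 of 1.09, lost without the second 24 h, second 12 h or first 6 h replicate (adjusted p 0.0884 to 0.185). That of Ifit3 (1.53) was lost without any 1 of the 6 untreated libraries. The chemokine receptor gene Cxcr4 had 20.6 and 19.2 CPM at 6 h, 32.3 and 32.4 CPM at 12 h and 30.1 and 26.1 CPM at 24 h (difference -0.92), a call lost without the second 24 h or second 12 h replicate (adjusted p 0.053 to 0.123). The GTPase gene Gimap6 had a difference of -1.06, lost without the second 12 h replicate (-1.15; adjusted p = 0.107). Those of Mrc1 (-0.91) and Gp1ba (1.22) were lost without the second 24 h or second 12 h replicate (adjusted p 0.128 to 0.404; -0.60 without the second 12 h replicate) and without the second 24 h or second 12 h replicate (adjusted p 0.053 to 0.268). Cxcl10 had 3.86 and 2.74 CPM at 6 h, 1.78 and 1.64 CPM at 12 h and 4.08 and 4.28 CPM at 24 h, the low point being 12 h (2.32), a call lost without the second 24 h, second 12 h or first 6 h replicate (adjusted p 0.0713 to 0.273). The difference of Slc41a3 (1.47) was lost without any 1 of the 6 untreated libraries, and that of Hmcn1 (-1.14) without the first 24 h, second 24 h, first 12 h, second 12 h or second 6 h replicate (adjusted p 0.09 to 0.2).

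**Figure D4:**
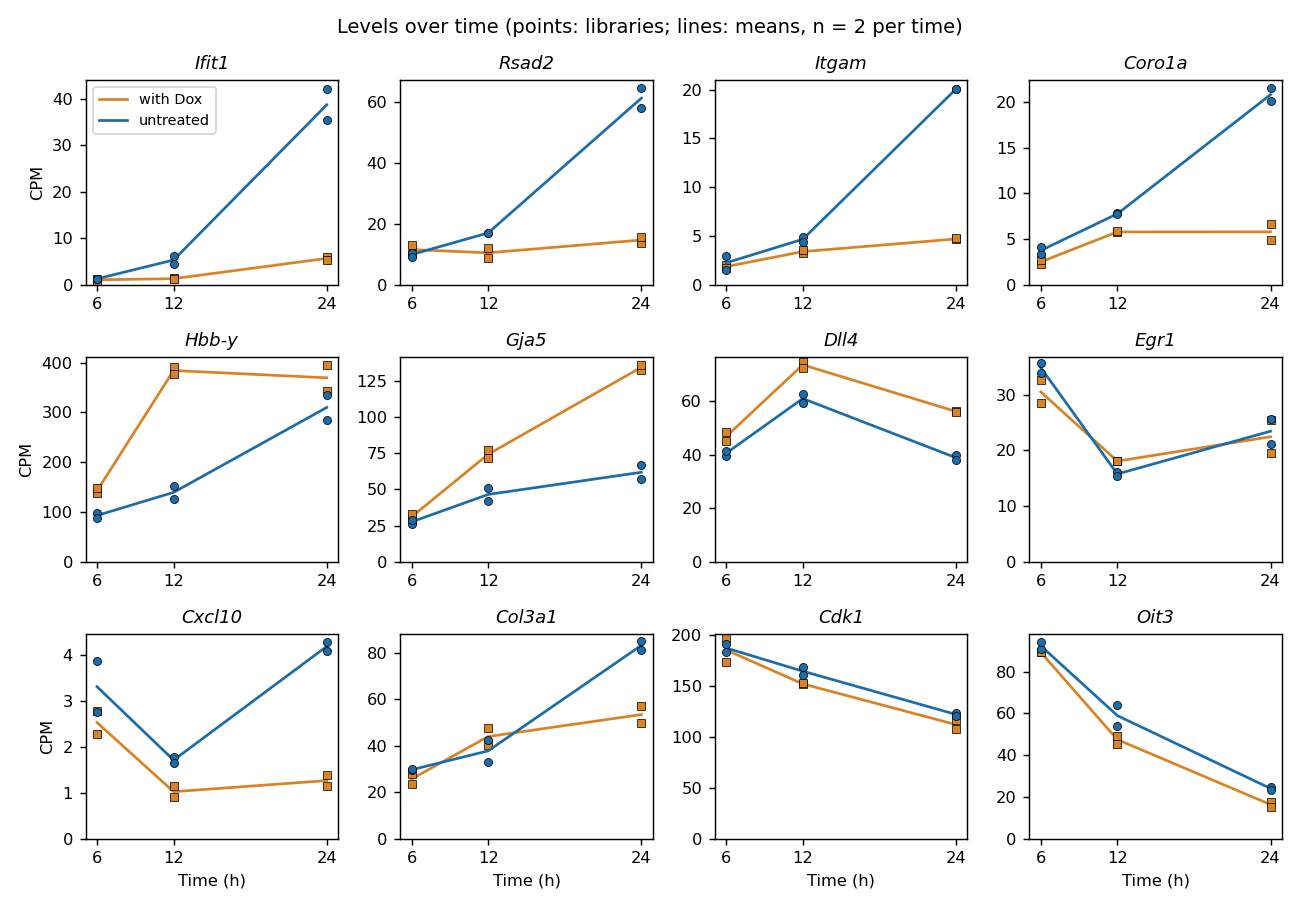
CPM of 12 genes at 6, 12 and 24 h, with Dox (orange) and untreated (blue); points are libraries and lines join the means (n = 2 per time). In untreated cells Dll4 peaks and Egr1 has its trough at 12 h, while Ifit1 climbs to 35.4 and 42.1 CPM at 24 h, against 5.91 and 5.38 CPM with Dox.

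With Dox most of these genes moved the same way over the same hours. The Dox course had 2121 called genes (13.8%), 1203 of them higher (7.84%) and 918 lower (5.98%), and it shares no library with the untreated course. Of the 1875 genes that were higher in untreated 24 h cells, 1675 (89.3%) had a positive log2 fold change with Dox, and 778 were called higher there and 16 lower. Their median log2 fold change was 0.25 with Dox and 0.44 untreated. Of the 1565 that were lower, 1444 (92.3%) had a negative one with Dox, with medians of -0.18 with Dox and -0.31 untreated. These sets were chosen on the untreated change, so their shares and medians describe them and test nothing. The share of all tested genes that moved the same way in both courses was not computed, so the 89.3% and 92.3% have no background beside them. Across 15347 genes the 2 sets of log2 fold changes had a Pearson r of 0.431 and a Spearman rho of 0.497, given as a description, since genes are not independent replicates.

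The difference between the courses, Dox minus untreated, was called for 185 genes (1.21%), 29 with a higher (0.189%) and 156 with a lower change (1.02%) with Dox. The number was 65 without the first 12 h Dox replicate, 114 without the second 24 h Dox replicate, 73 without the second untreated 12 h replicate, 92 without the first and 90 without the second untreated 24 h replicate; the Dox libraries were left out as a check chosen after seeing the data. Among the 185 were 12 of 20 tested erythroid, 11 of 30 interferon effector, 9 of 33 macrophage and 7 of 24 pan-haematopoietic genes. The interferon and macrophage counts were taken over all tested members. These include 6 interferon and 4 macrophage genes that passed the filter only through the untreated 24 h libraries, which favours a negative difference. Isg15 changed by 0.68 with Dox, at 5.16 and 3.16 CPM at 24 h and 2.79 and 2.63 CPM at 12 h, and by 2.53 untreated, a difference of -1.85 ± 0.28 (SE; adjusted p = 2.80e-04, edgeR). Itgam had 4.63 and 4.74 CPM at 24 h and 3.24 and 3.53 CPM at 12 h with Dox (0.48), against the untreated change of 2.13 (difference -1.65). Fcer1g changed by -0.05 with Dox and 1.76 untreated (-1.82), Coro1a by 0.05 and 1.43 (-1.38), and Il10ra by -0.47 and 1.63 (-2.10). The Fcer1g difference was lost without the first Dox 12 h replicate (-1.68; adjusted p = 0.106) and the Il10ra difference without the second untreated 12 h or first Dox 12 h replicate (adjusted p 0.107 to 0.186).

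The erythroid genes had medians of opposite sign in the 2 courses. Their median log2 fold change was -0.31 with Dox and 0.58 untreated, and the 12 h untreated replicates disagreed on them, as given above. Hbb-y had 396 and 343 CPM at 24 h and 390.3 and 378 CPM at 12 h with Dox (-0.05), so that Dox cells stood above untreated cells at 12 h and were near that level at 24 h (difference -1.21 ± 0.11, SE; adjusted p = 7.30e-08, edgeR). Hba-a1 changed by -0.47 with Dox and 0.86 untreated. Col3a1 had 57.3 and 49.7 CPM at 24 h and 47.7 and 40.4 CPM at 12 h with Dox (0.28; difference -0.88). Among the members that passed the filter without the untreated 24 h libraries, the median of the interferon effectors was 0.51 with Dox and 1.88 untreated, and that of the macrophage genes 0.40 and 1.44.

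A few genes had a higher change with Dox, in part because they fell in untreated cells. Gja5 had 133 and 136 CPM at 24 h and 71.7 and 77.0 CPM at 12 h with Dox (0.86), against an untreated change of 0.40 (difference 0.46; adjusted p = 0.0422, edgeR), but this difference was lost without the first untreated 24 h, second untreated 12 h, first Dox 24 h, second Dox 24 h or first Dox 12 h replicate (adjusted p 0.0625 to 0.543; 0.28 without the second untreated 12 h replicate). Frmpd1 had 11.8 and 12.4 CPM at 24 h and 5.81 and 5.77 CPM at 12 h with Dox, against 2.86 and 2.91 CPM at 24 h and 3.85 and 3.54 CPM at 12 h untreated (1.39 ± 0.24, SE; adjusted p = 0.00138, edgeR). The 24 h Dox libraries of Frmpd1 stood far above the other 6 of these libraries. The difference held without each of the 8 libraries for Frmpd1 and Isg15, and for 22 of the 44 named genes with a called difference. Those of Nkx1-2 (0.67), Syt13 (0.64), Zik1 (0.63) and Vgf (0.79) did not: Nkx1-2 was lost without the first untreated 24 h, second untreated 12 h, first Dox 24 h or first Dox 12 h replicate (adjusted p 0.0586 to 0.176), Syt13 without the second untreated 24 h, second untreated 12 h, second Dox 24 h, first Dox 12 h or second Dox 12 h replicate (adjusted p 0.0626 to 0.413), Zik1 without the first untreated 24 h, second untreated 24 h, second untreated 12 h, second Dox 24 h or second Dox 12 h replicate (adjusted p 0.0517 to 0.313) and Vgf without the first untreated 24 h, second untreated 24 h, first untreated 12 h, second untreated 12 h, second Dox 24 h or first Dox 12 h replicate (adjusted p 0.0503 to 0.37). Nkx1-2, Zik1 and Vgf changed by 0.06, 0.10 and 0.24 with Dox and by -0.61, -0.54 and -0.55 untreated, and Syt13 by 0.73 and 0.09. Nkx1-2 overlaps Fgfr2 on the same strand. Cell cycle genes fell in both courses: Mcm5 changed by -0.42 with Dox and -0.36 untreated (difference -0.06 ± 0.08, SE; adjusted p = 0.869), and Cenpa by -0.62 and -0.48 (difference -0.15 ± 0.10, SE; adjusted p = 0.673, edgeR).

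**Figure D5:**
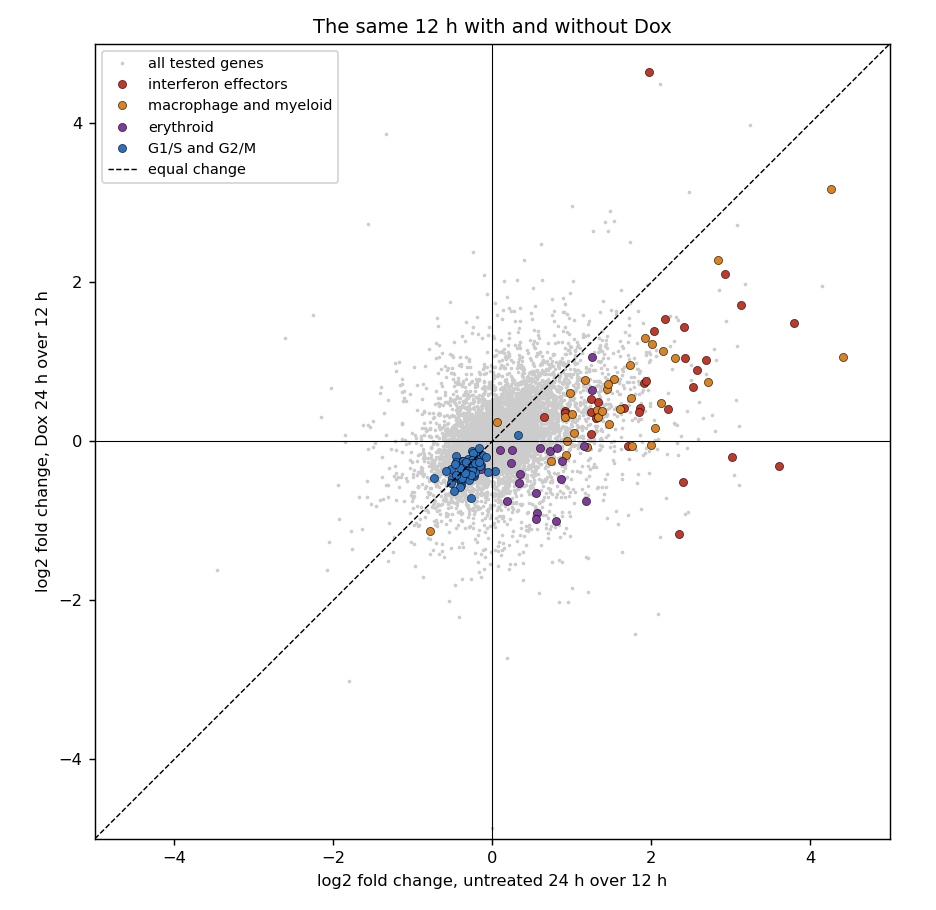
Log2 fold change of 24 h over 12 h with Dox (vertical axis) against the same change in untreated cells (horizontal axis) for 15347 genes, in grey, with 4 gene groups coloured; the dashed line marks equal change. All tested members are drawn, also those that passed the filter only through the untreated 24 h libraries. Without these, the medians of the interferon and macrophage genes were 0.51 and 0.40 with Dox against 1.88 and 1.44 untreated, and the G1/S and G2/M genes have mostly negative values on both axes.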

How the data were processed

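The deposited tables give, per gene and library, raw read counts and RPKM values, both made by the authors; the RPKM values per gene scale with the counts, with library factors within 1.13% of TMM-scaled sizes. The submitters' processing notes name edgeR 3.8.5, R 3.1.0, Bowtie2, SAMtools 0.1.19 and bcl2fastq 2.16.0.10, and the build GRCm38. How reads were counted, with which strand setting and annotation, is not given in the sources used here, so overlapping genes and close copies may share reads. Per the labels' protocols, libraries were strand specific and sequenced as single 75-base reads.

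From the counts, edgeR 4.0.16 (R 4.3.3) fitted 6 group means over all 12 libraries (TMM scaling, filterByExpr, quasi-likelihood test, 6 residual degrees of freedom), keeping 15347 of 41128 genes, with Benjamini-Hochberg adjustment over all of them. The biological coefficient of variation was 4.71%, and the 2 libraries of each group differed by 2.63 to 4.61 times their counting noise (chi-square per degree of freedom). They thus differed by more than counting noise alone. These values cannot tell libraries made from the same RNA or culture from those of separate cultures. The difference between courses or steps was tested as a contrast of the same fit. DESeq2 1.42.0, and limma 3.58.1 on log2(RPKM + 0.5) and log2(RPKM + 0.1), were alternatives.

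The 40 gene lists and the comparison were chosen with earlier results of these data known. Named genes were 12 fixed genes, the 15 largest rises and falls and the 5 smallest p-values each way among called genes that have a symbol, average at least 1 on the log2 CPM scale and do not overlap in level between the times, up to 4 called members of each list by p plus called members against its majority, and the 5 largest called differences each way. Promoter sequences, from RefSeq on GRCm38.p6, matched 575 of 780 tested list genes; Mcm5, Cdk1 and the 4 interferon genes were printed because they hold the letters searched. The replicate numbers of the 24 h and 12 h libraries did not move together (correlation of deviations 0.0812 over 10277 genes), so they were not used as pairs. A few genes chosen by these rules are not reported here. All deposited value columns were mapped to a library.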

Additional observations from a re-analysis of the deposited data

Results flagged for a closer look

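For 44 of the 195 named genes the change from 12 to 24 h differed between the Dox and the untreated course by a test of the difference itself (contrast of the edgeR quasi-likelihood fit, Benjamini-Hochberg adjusted p under 0.05), and 36 of the 44 differences were negative. Each value below is the log2 change with Dox minus that without it. Of all tested genes 1.21% had such a difference. Many of the 44 were named for a large untreated change, and some because this same difference was among the largest called. The counts of 44 and 36 were thus partly fixed by the choice of genes, and cannot be weighed against the 1.21%.

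Among interferon genes the differences were -1.85 for Isg15, -1.80 for Xaf1, -1.69 for Ifit3, -1.43 for Rsad2, -1.18 for Ddx58, -1.17 for Igtp, -1.04 for Irf9, -0.68 for Rnf213 and -0.63 for Stat2. Among myeloid and leukocyte genes they were -2.10 for Il10ra, -2.07 for Cytip, -2.05 for Igsf6, -1.82 for Fcer1g, -1.65 for Itgam, -1.38 for Coro1a, -1.02 for Cx3cr1, -1.0 for Ccl9, -0.74 for Ccl6, -0.74 for Laptm5, -0.73 for Mpo, -0.57 for Lcp1, -0.51 for Plek, -0.44 for Spp1 and -0.77 for Lpl. Erythroid genes gave -1.33 for Hba-a1, -1.21 for Hbb-y and -1.12 for Alas2.

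Matrix and mesenchymal genes gave -0.88 for Col3a1, -0.64 for Tgfbi, -0.55 for Postn, -0.45 for Col1a2 and -0.35 for Col1a1. Further negative differences were -0.57 for Ndrg1, -0.42 for Mef2c, -0.38 for P4ha2 and -0.30 for Nrp1. The positive ones were 1.39 for Frmpd1, 0.79 for Vgf, 0.67 for Nkx1-2, 0.64 for Syt13, 0.63 for Zik1, 0.47 for Rnd2, 0.46 for Gja5 and 0.35 for Gja4. Without each of the 8 libraries in turn, 22 of the 44 calls held. Those lost in at least 1 of these fits were Ccl6, Col1a1, Cx3cr1, Cytip, Fcer1g, Gja4, Gja5, Igsf6, Igtp, Il10ra, Lcp1, Mef2c, Mpo, Ndrg1, Nkx1-2, Nrp1, P4ha2, Rnd2, Spp1, Syt13, Vgf and Zik1. Of these, Cx3cr1, Spp1 and P4ha2 held in 1 of the 8 fits. The difference of Igtp was -0.56 (adjusted p = 0.766, edgeR) without the first Dox 12 h replicate, and that of Gja5 0.28 (adjusted p = 0.543) without the second untreated 12 h replicate.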

How the results depend on the processing

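Under 14 alternative settings none of the 185 called named genes reversed its sign, and 135 of them stayed called in every one. The uncalled changes of Kit and Syt13 did reverse without the first 24 h replicate. Reversals among called genes that are not named were not checked. The 3440 calls (1875 higher, 1565 lower) became 2103 to 2604 (1183 to 1387 higher, 920 to 1217 lower) when 1 of the 4 libraries was left out, and 2632 to 3731 under other scalings, filters, tools and sets of libraries, with 2673 by DESeq2. The fit with the replicate number as a block called 3427 genes, 3381 of them shared with the fit without it. It ended no call among the named genes but that of Tnf, and since the numbers did not pair the libraries, this says nothing about effect size.

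The differences were less stable, in part because leaving out a library leaves a lone one; otherwise the cause was not tested. The 64 differences between the 2 untreated steps (41 higher, 23 lower) became 6 to 84 (4 to 53 higher, 2 to 31 lower) without single libraries, 171 (84 higher, 87 lower) with no filter, 4 (3 higher, 1 lower) with limma on log2(RPKM + 0.5) and 2 (1 higher, 1 lower) on log2(RPKM + 0.1). The 185 differences between courses (29 higher, 156 lower) became 65 to 274 (4 to 70 higher, 56 to 204 lower) without single libraries, 356 (95 higher, 261 lower) with no filter, 66 (5 higher, 61 lower) with limma on log2(RPKM + 0.5) and 6 (0 higher, 6 lower) on log2(RPKM + 0.1), where 543 were higher at an unadjusted p under 0.05 and DESeq2 called 20. Leaving out the 6 h and the Dox libraries was chosen after seeing the data.

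Without single libraries the count of lower genes was 9 to 20 for the endothelial list, 4 to 8 for cholesterol synthesis, 19 to 25 for G1/S, 7 to 25 for ribosomal proteins and 8 to 10 for ribosome biogenesis, and the count of higher erythroid genes was 8 to 18. The ribosomal protein count was 13 with DESeq2, 9 with limma on log2(RPKM + 0.5) and 9 on log2(RPKM + 0.1), and the erythroid count 8 and 7 in these limma fits. The counts of the interferon effector, upstream interferon, macrophage, leukocyte, megakaryocyte, mesenchymal, collagen, lysosome and G2/M lists stayed within 1.5 times throughout. With 2 libraries a group and low counts in many interferon and macrophage genes, fold changes near 1 CPM are the least precise.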

Other observations

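Beyond protein-coding genes and pseudogenes, few transcripts were called. Of 253 tested lincRNAs 11 were higher and 5 lower at 24 h, of 140 antisense genes 4 were higher and 1 lower, and of 36 snoRNA genes 1 was lower. Over all tested genes 12.2% were higher and 10.2% lower. Whether low counts of these transcripts limited their calls was not tested. Of the genes called higher in untreated 24 h cells, 16 were called lower over the same hours with Dox, and of those called lower, 1 was called higher with Dox.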
